A study of Rattus norvegicus with 27 samples.

Results

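The 6 genes of neurotrophin signalling listed here were followed in the medial prefrontal cortex (mPFC) of 27 male rats: the ligands Bdnf and Ntf3, the Trk receptors Ntrk2 and Ntrk3, the p75 receptor Ngfr and the sorting receptor Sort1. They were picked by gene symbol, and each matched 1 of the 36865 rows of the raw count table. Each library is the RNA of 1 adult Wistar rat, and all 27 belong to 1 group with no control and no treated arm. The rats were decapitated straight from the home cage in the early active phase, 2 weeks after a final open field test, which closed a repeated battery of anxiety tests (elevated plus-maze, light-dark box, open field). The labels name learned helplessness as the treatment of every sample, which the study's methods do not describe, and the behaviour of the single rats was not used here. The questions were how far each gene varied between rats at rest, whether the 6 genes moved together, and whether Bdnf moved with Fos and Arc.

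Neurotrophins are secreted growth factors that support the survival of neurons and the strength of their synapses. BDNF binds the receptor tyrosine kinase TrkB (Ntrk2), NT-3 binds mainly TrkC (Ntrk3), and the uncleaved proneurotrophins bind p75 (Ngfr) together with sortilin (Sort1), which also guides the sorting of proBDNF inside the cell. In cortex, Bdnf is transcribed in neurons from several alternative start sites, and part of this transcription is driven by neuronal activity through the transcription factor CREB. Fos and Arc are immediate early genes, which are transcribed shortly after neurons fire. Ngfr in the forebrain is known best from the cholinergic neurons of the basal forebrain.

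RefSeq windows of 300 bases around annotated gene starts (assembly GRCr8, 250 bases before to 50 after the start) were at hand for Bdnf (6 windows), Ntf3 (3) and Sort1 (1). They were searched on both strands for the full cAMP response element TGACGTCA, for its half-site TGACG, which the full element also contains, for the AP-1 motif TGANTCA bound by Fos and Jun proteins, and for the CArG box. The 2 Bdnf windows with a match are shown because the relation of Bdnf to activity genes is asked below, with the matching bases in capitals. The half-site lies on the minus strand and reads as CGTCA on the printed plus strand.
Bdnf window 3, chr3:116621721-116622020, plus strand: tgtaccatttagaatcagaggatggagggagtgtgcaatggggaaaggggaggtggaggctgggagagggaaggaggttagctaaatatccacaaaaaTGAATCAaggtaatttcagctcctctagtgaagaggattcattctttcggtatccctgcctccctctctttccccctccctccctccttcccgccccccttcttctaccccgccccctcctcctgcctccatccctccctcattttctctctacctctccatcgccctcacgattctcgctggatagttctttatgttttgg
Bdnf window 4, chr3:116637608-116637907, plus strand: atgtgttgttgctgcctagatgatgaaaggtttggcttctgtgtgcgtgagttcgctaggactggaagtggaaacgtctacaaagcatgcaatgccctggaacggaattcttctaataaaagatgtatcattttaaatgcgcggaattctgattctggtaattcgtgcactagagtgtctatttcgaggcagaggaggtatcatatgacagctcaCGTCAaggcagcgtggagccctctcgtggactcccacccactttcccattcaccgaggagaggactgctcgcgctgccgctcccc
The AP-1 match of window 3 begins at position -152 from the gene start and the half-site of window 4 at position -35. The other 4 Bdnf windows, the 3 of Ntf3 and that of Sort1 held none of these letters. Among all 33469 windows of this length, 21.2% held the half-site, 7.33% the AP-1 motif, 1.83% the full element and 1.64% a CArG box. The count table gives 1 number per gene, so reads from the different Bdnf starts were counted together.

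Between 4907255 and 12771309 reads per library were counted on genes. The 16 libraries numbered up to 31 had lower totals (4907255 to 8568317) than the 11 numbered from 32 (9404220 to 12771309). These sets are drawn from the library numbers, and the labels name no such groups. The study took its male rats from 2 cohorts, and whether the sets match the cohorts was not tested. The relations of the members are also given within each set. Levels are normalized counts, the raw count divided by the library's size factor, and log values are log2(normalized count + 1). Of the cortical marker lists, all 8 pan-neuronal, all 7 excitatory neuron and all 7 deep-layer markers passed the count filter, as did 5 of 6 upper-layer and 7 of 8 interneuron markers, while Cux1 (upper-layer) and Sst (interneuron) were listed at 0 in all 27 libraries. Libraries 3, 24 and 51 stood apart. Library 3 had the highest summed oligodendrocyte markers (63981 normalized counts against a median of 29103), library 24 had the highest summed meningeal markers (7122 against a median of 1718), and library 51 had the highest summed cholinergic markers (187 against at most 115 in the others). Fits were also run without library 3 and without library 51, while fits without library 24 were not run. Since the samples are bulk tissue, fewer cells of a type and less RNA per cell cannot be told apart.

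Bdnf, the ligand of TrkB, had reads in every rat. Its lowest level was 224 normalized counts (library 42), its median 321 and its highest 420 (library 31), so that the extremes differed 1.87-fold. The mean was 325 ± 48.7 (SD, n = 27), and 14.1% of the variance between rats was counting noise. Ntf3, which encodes NT-3, ran from 48.5 (library 31) over a median of 88.9 to 132 (library 19), with a mean of 89.0 ± 18.1. Library 31 thus had both the highest Bdnf and the lowest Ntf3. Ntf3 had 37 to 141 reads per library, and 27.8% of its variance was counting noise.

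Ntrk2, which encodes TrkB, was the steadiest of the 6. It ran from 3801 (library 18) over a median of 4902 to 6456 normalized counts (library 5), with a mean of 4994 ± 501 and an SD of 0.14 on the log2 scale. The median of this SD was 0.19 over all genes that averaged 10 or more reads. Ntrk3, which encodes TrkC, ran from 158 (library 3) over a median of 307 to 397 (library 35), with a mean of 296 ± 54.9 and a log2 SD of 0.29. Sort1, which encodes sortilin, ran from 3653 (library 3) over a median of 5864 to 7684 (library 12), with a mean of 5715 ± 1019 and a log2 SD of 0.26. Library 3 was thus the lowest for both Ntrk3 and Sort1. The log2 SD of Bdnf was 0.22 and that of Ntf3 0.31.

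Ngfr, which encodes p75, was close to the limit of detection, with 1 to 60 reads per library. It ran from 1.23 (library 18) over a median of 6.81 to 49.6 normalized counts (library 51). The mean was 9.02 ± 8.83 (n = 27), and without library 51 it was 7.46 ± 3.56 (n = 26), with a highest value of 16.1. Counting noise was 11.9% of its variance with library 51 and 61.0% without it. With a mean of 9.81 reads it did not reach the minimum mean count of 10, so 5 of the 6 members entered the tests across genes. All 5 varied beyond counting noise (chi-square dispersion test, Benjamini-Hochberg adjusted), as did 89.8% of the 11730 genes that averaged 10 or more reads, so the count of members is close to the background.

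**Figure D1:**
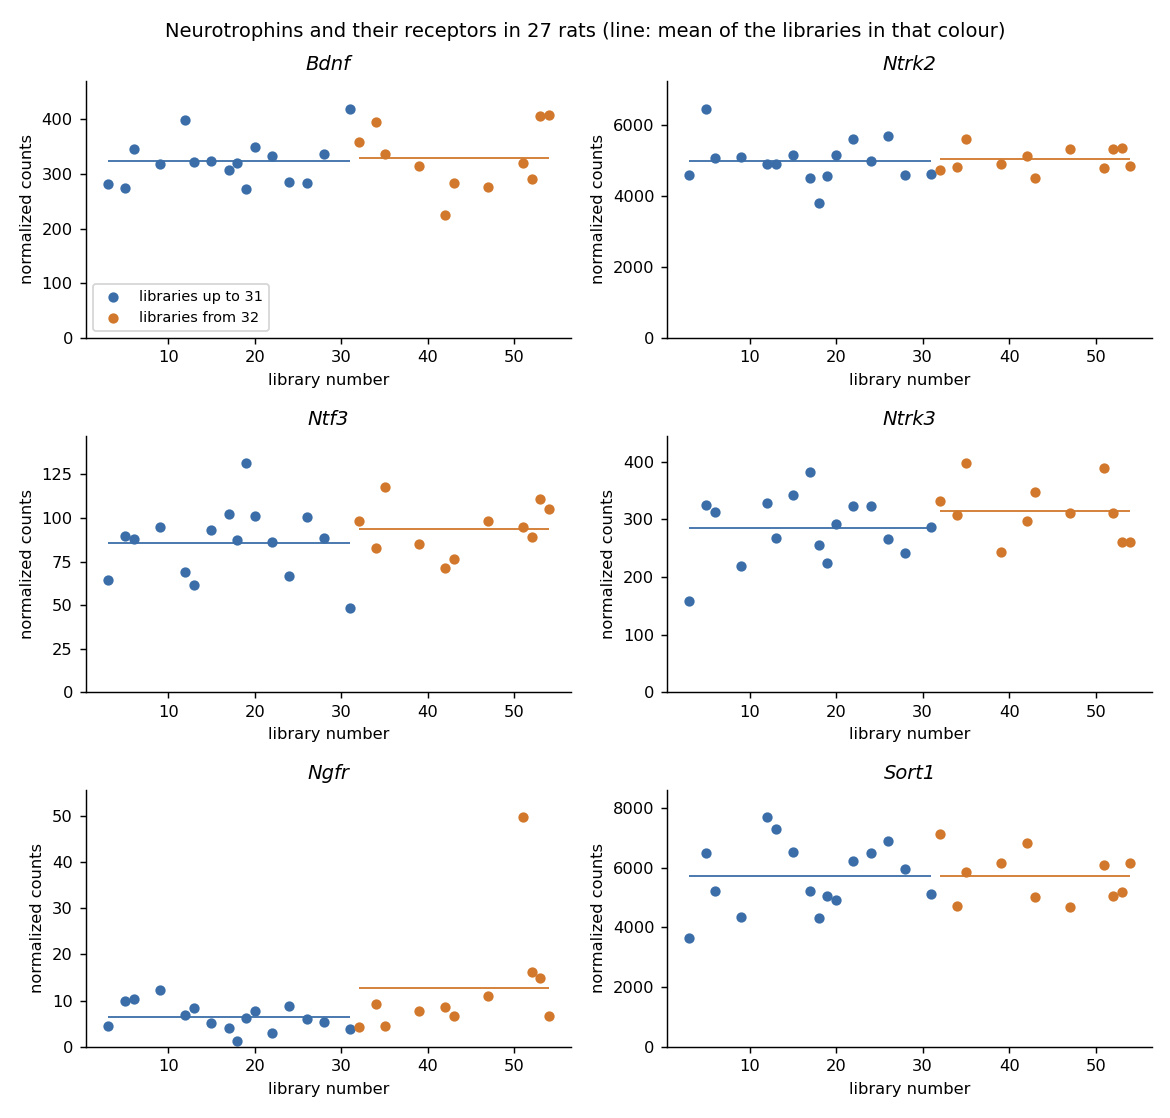
Normalized counts of the 6 genes (y axis, from 0) against library number (x axis), 1 point per rat, in blue for the 16 libraries up to 31 and in orange for the 11 from 32, with a line at the mean of each set. The sets overlap in every panel, and Ngfr has 1 point, library 51, at 49.6 while all others lie at or below 16.1.

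None of the tested members passed the comparison between the sets of libraries. Bdnf had a mean of 323 ± 42.03 (SD, n = 16) up to library 31 and 329 ± 59.1 (n = 11) from library 32, a fitted log2 difference of 0.02 ± 0.08 (SE) with an adjusted p of 0.876 (edgeR's quasi-likelihood test, Benjamini-Hochberg). The fitted log2 differences of the other 4 tested members lay between 0.00 (Sort1) and 0.14 (Ntrk3), and none of the 5 passed, also not at an unadjusted p of 0.05 or in DESeq2's Wald test. Of all 11292 genes tested, 18.5% passed, 9.21% higher and 9.28% lower from library 32. Fos averaged 257 ± 93.8 normalized counts up to library 31 and 173 ± 71.4 from library 32, a log2 difference of -0.57 ± 0.21 with an adjusted p of 0.0507. Arc averaged 1121 ± 506 and 1115 ± 390.

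Fos, a subunit of the AP-1 transcription factor, varied more between rats than any of the 5 tested members. It ran from 86.6 (library 52) over a median of 211 to 453 normalized counts (library 31), and Arc, a synaptic protein that acts in glutamate receptor endocytosis, from 563 (library 18) over 961 to 2481 (library 12). Their log2 SDs were 0.63 and 0.55. Fos and Arc moved together across rats, with a Spearman's rho of 0.69 (unadjusted p = 1e-04, adjusted p = 0.0977) and a Pearson's r of 0.68 (unadjusted p = 0.00014, adjusted p = 0.0782, permutation tests). The rho was 0.66 up to library 31 and 0.95 from library 32. Neither coefficient passed when adjusted over all 11729 genes, whereas the edgeR fits called Arc with Fos as the covariate (slope 0.39 ± 0.07 log2 units per SD, adjusted p = 0.00525) and Fos with Arc as the covariate (0.40 ± 0.08, adjusted p = 0.0482). Without library 51 the first had an adjusted p of 0.0111 and the second, no longer a call, one of 0.0725.

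The relation of Bdnf passed the adjusted tests with neither gene. Its rho with Fos was 0.20 (unadjusted p = 0.315, adjusted p = 0.739) and its r was 0.27 (unadjusted p = 0.176, adjusted p = 0.592), in two-sided permutation tests over 27 libraries adjusted over all genes. Within the sets the rho was 0.03 up to library 31 and 0.55 from library 32, and without the libraries of most extreme Fos, 52 and 31, r fell to 0.12. Of the 11729 genes, 0.0682% passed the same test against Fos. The rho of Bdnf with Arc was 0.37 (unadjusted p = 0.0602, adjusted p = 0.815) and r was 0.40 (unadjusted p = 0.0369, adjusted p = 0.731). It was alike in the sets, at 0.37 and 0.45, and r was 0.34 without libraries 12 and 51. Of all genes, 0.0256% passed against Arc. With 100000 permutations the smallest possible p is 1e-05, so an adjusted p under 0.05 needs at least 3 genes at that minimum.

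**Figure D2:**
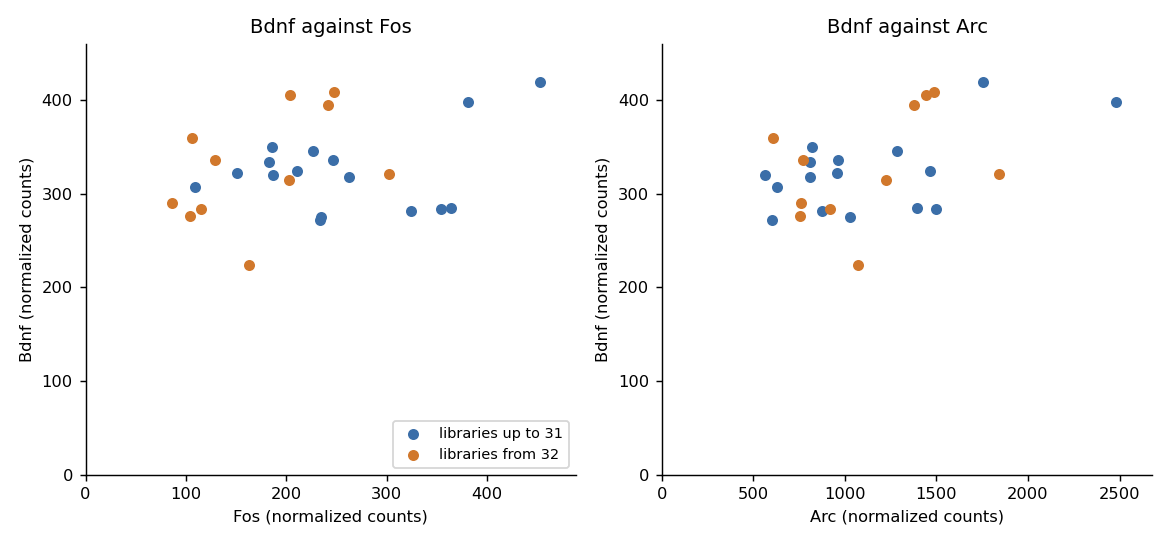
Normalized counts of Bdnf (y axes, from 0) against those of Fos (left) and Arc (right), 1 point per rat, coloured by set of library numbers. Library 31, with the highest Bdnf (420) and the highest Fos (453), is the point at the top right of the left panel, and Bdnf stays between 224 and 420 over the whole range of both genes.

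In edgeR's quasi-likelihood fits, the slope of Bdnf was 0.06 ± 0.04 (SE) log2 units per SD of the log2 level of Fos (adjusted p = 0.511) and 0.09 ± 0.04 per SD of Arc (adjusted p = 0.732). Neither passed. The genes that passed with Fos were 0.523% of 11291, of which 58 rose (0.514%) and 1 fell (0.00886%), and those with Arc were 0.0886%, of which all 10 rose. The count for Fos was 18 without library 3, 188 without library 51 and 14 with the set of libraries as a covariate. Of the 5 tested members, 0 passed in either fit. Unadjusted, 2 members had a p under 0.05 with Arc, Bdnf (0.0229) and Sort1 (0.0283), and 0 with Fos, against 6.59% of all genes with Arc and 13.2% with Fos. Immediate early genes did pass. Of 25 tested, 10 rose with Fos, among them Egr2 (slope 0.63 ± 0.05, adjusted p = 1.6e-08) and Inhba (0.62 ± 0.13, adjusted p = 0.0215), and 7 rose with Arc, among them Npas4 (0.65 ± 0.06, adjusted p = 1.57e-07). Npas4, an activity-dependent factor known to act on Bdnf transcription, also rose with Fos (0.50 ± 0.10, adjusted p = 0.0201).

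With Bdnf itself as the covariate, 0 of 11291 genes passed in edgeR, 729 had an unadjusted p under 0.05, and DESeq2's Wald test called 4. Among 26 immediate early genes, 11 had an unadjusted p under 0.05, all with a positive slope, against 6.46% of all genes, and 20 had a positive slope, against 48.7% of all genes. Homer1, a postsynaptic scaffold gene, had a slope of 0.12 ± 0.03 log2 units per SD of Bdnf (adjusted p = 0.491), and Nptx2, a secreted synaptic pentraxin, 0.13 ± 0.04 (adjusted p = 0.619). None of these is a call. The 3 genes with the highest rho to Bdnf over the 27 libraries were Otub2, a deubiquitinase (0.79), Bmal1, a core factor of the circadian clock (0.76), and Adprhl1 (0.69). Their rho up to library 31 was 0.64, 0.59 and 0.41, and from library 32 it was 0.82, 0.82 and 0.83. They were chosen for their likeness out of all genes of at least 50 normalized counts, so these values are a description.

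No pair of members passed. Of the 15 pairs, 0 had an unadjusted Spearman p under 0.05, and none of the 11 pairs with an adjusted p passed. The other 4 contain Ngfr, which is below the count filter. Of all genes, 5.73% passed the same test against Ntrk3 and 0 against the other members that served as first gene of a pair. The highest rho was that of Ntrk2 with Ngfr, at 0.37 (unadjusted p = 0.0557), and it was 0.43 up to library 31 and 0.24 from library 32. Next came Ntrk3 with Sort1 at 0.36 (unadjusted p = 0.0625, adjusted p = 0.223), with an r of 0.46 (unadjusted p = 0.016, adjusted p = 0.053). This pair had a rho of 0.59 up to library 31 and -0.19 from library 32, and its r was 0.12 without libraries 3 and 9. The value of r thus depended on those 2 libraries, of which library 3 had the lowest level of both genes.

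No pair of a ligand and a receptor passed either. Bdnf with Ntrk2 had a rho of -0.05 (unadjusted p = 0.812, adjusted p = 0.982), with 0.01 and -0.04 in the sets. Ntf3 with Ntrk3 had a rho of 0.08 (unadjusted p = 0.704, adjusted p = 0.983), with 0.04 and 0.14 in the sets. Bdnf with Sort1 had a rho of 0.10, with 0.12 and 0.13 in the sets. Bdnf with Ngfr had one of -0.14, with -0.12 and -0.14 in the sets. The pair of ligands, Bdnf and Ntf3, had a rho of 0.04 over all libraries, -0.34 up to library 31 and 0.56 from library 32, and the difference between the sets was not tested.

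**Figure D3:**
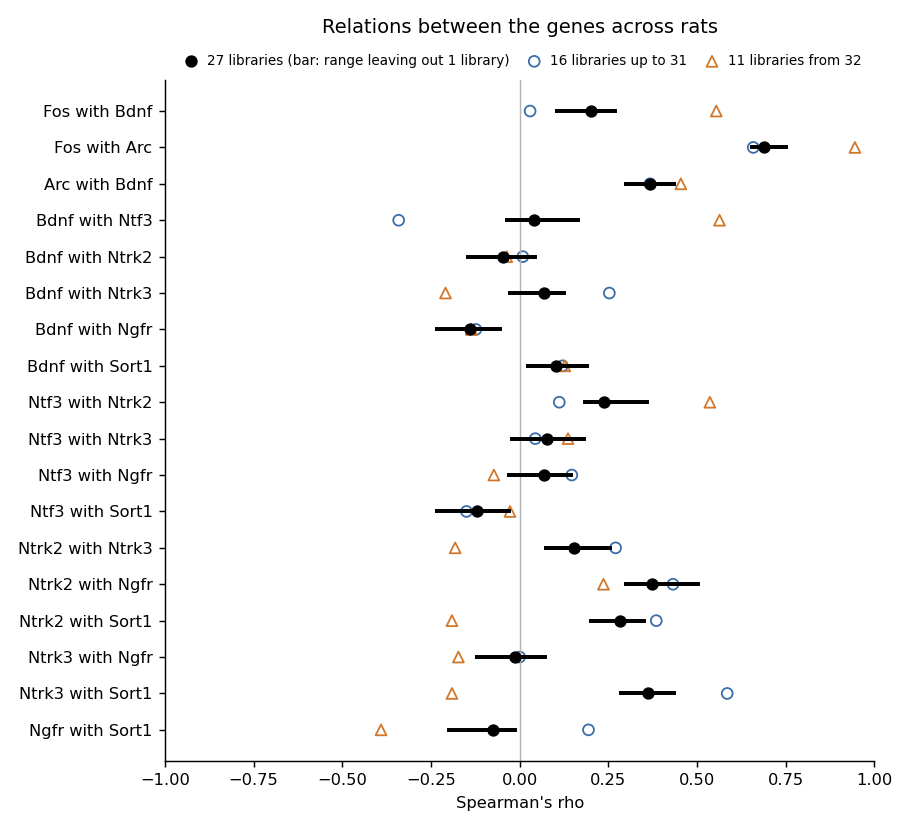
Spearman's rho (x axis) of 18 gene pairs (y axis) over 27 libraries (black points, with a bar from the lowest to the highest rho when 1 library is left out), over the 16 libraries up to 31 (blue circles) and over the 11 from 32 (orange triangles). Fos with Arc is highest at 0.69, Bdnf with Arc lies at 0.37, and several pairs of members, such as Bdnf with Ntf3, have symbols on both sides of 0.

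Library 51 was the highest for Ngfr and for most of the genes that mark basal forebrain cholinergic neurons. In library 51 Ngfr stood at 49.6 normalized counts (60 reads), against at most 16.1 in the other 26. Slc18a3, the vesicular acetylcholine transporter, stood at 47.9 against at most 20.2. The transcription factor genes Lhx8 (19.01, against at most 1.53) and Isl1 (12.4, against at most 2.74) were also highest there, and Lhx8 had no read in 19 of the other 26 libraries. Slc5a7, the choline transporter, was 64.5 in library 51 and up to 95.2 in another library, so it was not highest there. The summed striatal markers (3416, against at most 3217) and interneuron markers (5968, against at most 5669) were also highest in library 51. The part of these markers in the Ngfr value was not tested.

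**Figure D4:**
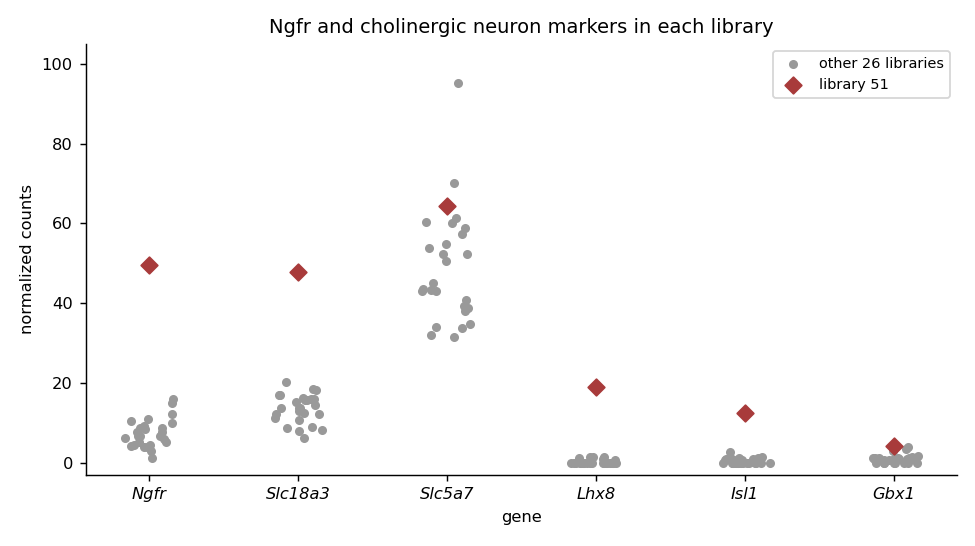
Normalized counts (y axis) of Ngfr and 5 cholinergic neuron markers (x axis) in library 51 (red diamonds) and in the other 26 libraries (grey points, spread sideways for legibility). Library 51 is the highest for every gene shown except Slc5a7, where 95.2 is the highest value of the others.

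With Ngfr as the covariate, 0.0886% of 11292 genes passed, and all 10 rose. They included Ecel1, a neuronal endopeptidase (slope 0.81 ± 0.08 log2 units per SD of Ngfr, adjusted p = 1.39e-07), Slc10a4, a vesicle protein gene of cholinergic and monoaminergic neurons (0.45 ± 0.07, adjusted p = 0.00291), and Slc18a3 (0.38 ± 0.07, adjusted p = 0.0385), which passed the count filter only with library 51. Adora2a and Rgs9, both striatal markers, rose by 0.26 ± 0.05 and 0.24 ± 0.05, each with an adjusted p of 0.0385. Without library 51 the fit called 2 genes, and the adjusted p was 0.25 for Ecel1, 0.711 for Slc10a4, 0.447 for Adora2a and 0.579 for Rgs9. Plekhh1 passed with library 51 (adjusted p = 0.0385) and without it (0.0388). Without library 18, the lowest for Ngfr, 2 genes were called. By rho, the genes most like Ngfr over all libraries were Ptpro, a receptor tyrosine phosphatase (0.78), Usp54 (0.69) and Nfia, a glial transcription factor (0.68). Their rho was 0.66, 0.55 and 0.54 up to library 31 and 0.85, 0.75 and 0.79 from library 32.

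**Figure D5:**
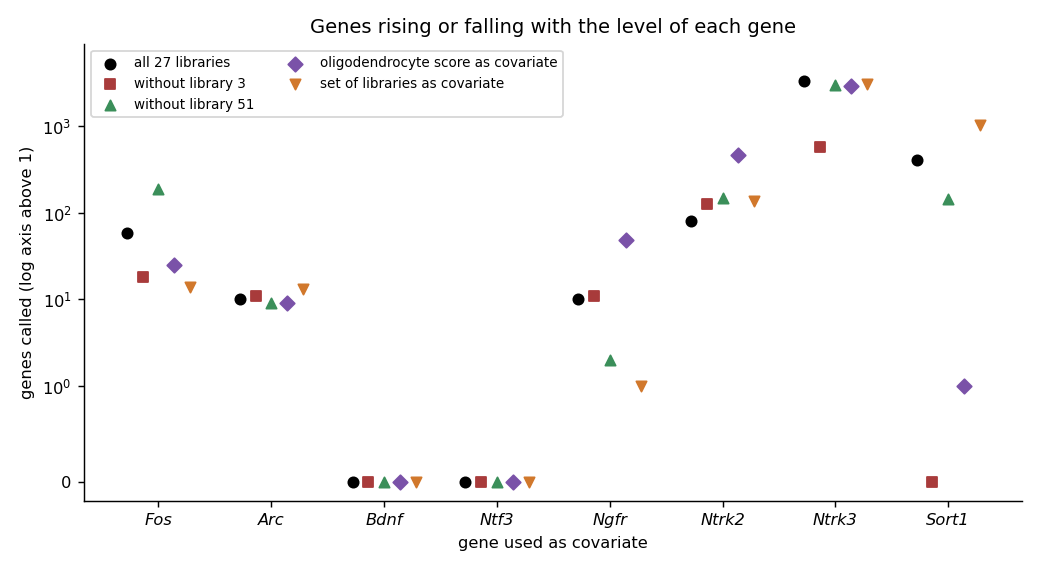
Number of genes with an adjusted p under 0.05 (y axis, logarithmic above 1) in edgeR fits on the level of each of 8 genes (x axis), with all 27 libraries (black circles) and under 4 other settings. The count is 0 for Bdnf and Ntf3 under each setting shown and highest for Ntrk3, and for Sort1 it moves from 413 to 0 without library 3.

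The fit on the other ligand made no calls. With Ntf3 as the covariate 0 of 11291 genes passed in edgeR, 416 had an unadjusted p under 0.05, and DESeq2's Wald test also called 0. Of the 26 immediate early genes, 1 had a positive slope, against 46.7% of all genes, and 7 had an unadjusted p under 0.05, all with a negative slope, against 3.68% of all genes. The 10 oligodendrocyte markers also had negative slopes only, with a median of -0.09 against -0.08 for the immediate early genes. The genes most like Ntf3 by rho were Stx18, which acts in vesicle traffic of the endoplasmic reticulum (0.68), the histone variant gene Macroh2a2 (0.66) and Myh7 (0.62). Their rho was 0.84, 0.58 and 0.51 up to library 31 and 0.29, 0.77 and 0.70 from library 32.

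The fits on the receptors made more calls. With Ntrk2 as the covariate, 0.717% of 11291 genes passed, 59 rising and 22 falling. Of the 11 astrocyte markers 2 rose, the glutamate transporter Slc1a3 (0.15 ± 0.02 log2 units per SD of Ntrk2, adjusted p = 0.00599) and Fgfr3 (0.10 ± 0.02, adjusted p = 0.027), and of the 9 microglia markers 1 rose, Tmem119 (0.28 ± 0.06, adjusted p = 0.0379). The microglia count was 2 without library 3 and 2 without library 51. All slopes were positive in 4 glial lists (11 astrocyte, 10 oligodendrocyte, 6 oligodendrocyte precursor and 9 microglia markers), against 47.5% of all genes. Sorcs2, a member of the sortilin family known to bind proneurotrophins, rose by 0.10 ± 0.02 (adjusted p = 0.0323). With all 27 libraries and no covariate besides Ntrk2, 0 of 38 Trk adaptors and kinases, 0 of 12 p75 partners and 0 of 26 immediate early genes passed in edgeR. Without library 3, 1 of the adaptors and kinases rose. With the oligodendrocyte score as a covariate, 1 of them rose and 1 p75 partner fell. The number of Ntrk2 calls depended on 2 libraries. It was 0 without library 5 and 2 without library 18, the highest and the lowest for Ntrk2. It was 126 without library 3 and 147 without library 51. At an unadjusted p under 0.05 in edgeR, 1423 genes remained without library 5 and 1174 without library 18, against 1824 with all 27 libraries. The part of these 2 libraries in the relations was not tested. The genes most like Ntrk2 by rho were the acetyltransferase gene Kat6a (0.75), the microglial gene Tmem119 (0.74) and Irf2 (0.73). Their rho was 0.81, 0.65 and 0.65 up to library 31 and 0.49, 0.85 and 0.81 from library 32.

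With Ntrk3 as the covariate 29.7% of the 11291 genes passed, with 1587 rising and 1768 falling. Of the sortilin family, 3 of 5 rose, namely Sorcs1 (0.22 ± 0.06 log2 units per SD of Ntrk3, adjusted p = 0.00773), Sorcs2 (0.10 ± 0.02, adjusted p = 0.00379) and Sorcs3 (0.09 ± 0.03, adjusted p = 0.00812), while Sort1 had a slope of 0.11 ± 0.05 with an adjusted p of 0.0599. Of 38 Trk adaptors and kinases, 10 rose and 4 fell, against 14.1% and 15.7% of all genes. The neuronal adaptor gene Shc3 rose by 0.40 ± 0.11 (adjusted p = 0.006), and the kinase gene Rps6ka1 fell by 0.17 ± 0.04 (adjusted p = 0.00348). Of 12 p75 partners, 3 rose and 3 fell, among them the Nogo receptor partner Lingo1 (0.12 ± 0.03, adjusted p = 0.00358) and the small GTPase gene Rhoa (-0.22 ± 0.05, adjusted p = 0.00172). Of 9 proneurotrophin processing genes, 2 fell, the proprotein convertase gene Furin (-0.13 ± 0.04, adjusted p = 0.0152) and Cpe (-0.04 ± 0.01, adjusted p = 0.0376). Of 15 transcription factors of Bdnf, 2 rose, the CREB coactivator gene Crtc1 (0.28 ± 0.04, adjusted p = 6.57e-05) and Mef2d (0.21 ± 0.04, adjusted p = 0.000322), and Creb1 fell by 0.28 ± 0.10 (adjusted p = 0.0391).

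Many of these calls were lost without library 3, the lowest for Ntrk3. Then 578 of 11274 genes passed, 282 rising and 296 falling. Among them were 0 of the sortilin family, 0 of the Trk adaptors and kinases, 0 of the p75 partners and 0 of the processing genes. Meanwhile 2 of the 15 Bdnf transcription factors rose. With so few calls over all genes, a count of 0 in lists this short does not set them apart from the background. Of 10 oligodendrocyte markers, 7 fell with Ntrk3 in all libraries and 0 without library 3, whose summed oligodendrocyte markers were the highest. Without library 51, 4 of these 10 fell, as did 2 of the Trk adaptors and kinases, 2 of the p75 partners, 1 of the processing genes and 0 of the Bdnf transcription factors. The rising calls without library 51 were 3 of the sortilin family and 11 of the Trk adaptors and kinases. They also included 3 of the p75 partners and 2 of the Bdnf transcription factors. Of 7 excitatory neuron markers, 5 rose with Ntrk3, such as Camk2a (0.28 ± 0.06, adjusted p = 0.000517), and 1 rose without library 3. With the set of libraries or the oligodendrocyte score as a covariate, 4 of the 7 rose and 1 fell. The other neuronal lists were mixed. Slopes were positive for 4 of 8 pan-neuronal, 1 of 7 deep-layer, 3 of 5 upper-layer and 5 of 7 interneuron markers, against 50.3% of all genes. The genes most like Ntrk3 by rho were Mapk8ip3, a scaffold of JNK signalling and axonal transport (0.78), Tmem63c (0.78) and Syt7, a calcium sensor of vesicle release (0.78). Their rho was 0.79, 0.84 and 0.81 up to library 31 and 0.68, 0.76 and 0.65 from library 32.

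With Sort1 as the covariate, 3.66% of 11291 genes passed, 222 rising (1.97%) and 191 falling (1.69%). Of 38 Trk adaptors and kinases 1 rose, the kinase gene Fyn (0.07 ± 0.02 log2 units per SD of Sort1, adjusted p = 0.0444), and of 12 p75 partners 1 rose, Irak1 (0.08 ± 0.02, adjusted p = 0.0484). None of the other 4 sortilin family genes passed in edgeR, Sorcs2 with an adjusted p of 0.0971 being the nearest. The calls did not hold without library 3 or without library 12, the lowest and the highest for Sort1, where 0 genes passed, 144 passed without library 51, and with the oligodendrocyte marker score as a covariate 1 gene passed. All 10 oligodendrocyte markers had a negative slope, with a median of -0.12 against 0.00 over all genes, and 0 of them passed. All 8 meningeal markers tested had a positive slope, with a median of 0.26, and 0 of them passed. Of 5 upper-layer markers only 3 had a positive slope, and 2 of these passed, Rorb (0.27 ± 0.06, adjusted p = 0.036) and Cux2 (0.16 ± 0.05, adjusted p = 0.0465). The part of these cell types in the relations of Sort1 was not tested. The genes most like Sort1 by rho were Ablim3, an actin-binding protein gene (0.78), the G protein gene Gna11 (0.72) and Hivep3 (0.70), and their rho was 0.90, 0.83 and 0.91 up to library 31 against 0.57, 0.26 and 0.18 from library 32.

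Further genes of the family are given as levels. Ntf4, a further ligand of TrkB, had reads in 19 of 27 libraries and at most 6.81 normalized counts. In the sortilin family, Sorl1 averaged 3817 ± 365, Sorcs1 299.99 ± 72.0, Sorcs2 751 ± 78.5 and Sorcs3 556 ± 59.3 (SD, n = 27). Their log2 SDs were 0.14, 0.39, 0.16 and 0.16, so that Sorcs1 varied most. Levels of different genes are not ranked against each other, since the counts were not divided by transcript length.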

How the data were processed

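The authors deposited raw counts, whole numbers of reads per gene and library, without normalization. The submitters' processing notes name Trimmomatic, STAR and HTSeq, and the build and strandedness are not given in the sources used here. Rows carry NCBI gene IDs, which were matched to symbols in the GRCr8 RefSeq table (27825 of 36865 rows matched, and 436 further rows were split by locus). Counts were divided by size factors (median of ratios, DESeq2 1.42.0). Genes following the level of a gene were fitted with edgeR 4.0.16 (quasi-likelihood test, TMM, filterByExpr) on that gene's standardised log2 level, in R 4.3.3. Relations are Spearman's rho and Pearson's r with 100000 permutations, adjusted by the Benjamini-Hochberg method over all genes averaging 10 or more reads (Python 3.11.15, scipy 1.17.1). On simulated data, the fit on Fos recovered 197 of 200 genes given a log2 slope of 0.5 per SD, with 9 false calls (11292 genes), and smaller slopes were not simulated. The members and gene lists were chosen with earlier results of these data known. Named genes were the members, Fos, Arc, their ligand and sortilin relatives, the 3 genes of highest rho per member, and in each list and fit the 2 steepest called slopes either way. Homer1, Nptx2, Ecel1, Slc10a4, Plekhh1, Slc5a7, Lhx8, Isl1, Gbx1, Sst and Cux1 lie outside this rule, having been chosen once the values had been seen. Other scalings, filters, covariates and left-out libraries were tried. Reads without molecular identifiers may be copies, so counting noise covers counting error only. Each library is 1 rat, so rats are the replicates in each test. Differences between rats cannot be told apart from differences in dissection or library preparation.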

Additional observations from a re-analysis of the deposited data

How the results depend on the processing

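No paired analysis was possible because the 27 rats form 1 group. The relations of Bdnf with Fos and with Arc kept their direction and their side of the threshold in each alternative run. The runs within the sets say little about the threshold. Of 11729 genes, 0 passed against Fos in either set and 0 against Arc from library 32. Leaving out each library in turn, the rho of Bdnf with Fos lay between 0.11 and 0.27 and that with Arc between 0.30 and 0.44, and 0 pairs of members passed. Levels, the spread beyond counting and the comparison of the sets of library numbers also held. Counts of genes following a gene moved most. With DESeq2's Wald test they were 212 for Fos, 4 for Bdnf, 271 for Ntrk2, 47 for Ngfr and 878 for Sort1. Without the filter on low counts they were 28 for Ntrk2, 21 for Ngfr and 88 for Sort1. With the oligodendrocyte score as a covariate they were 25 for Fos, 462 for Ntrk2, 48 for Ngfr and 1 for Sort1. With the set of libraries as a covariate they were 14 for Fos, 137 for Ntrk2, 1 for Ngfr and 1039 for Sort1. Leaving out library 3, library 51 or the library of highest or lowest level of the gene, chosen after seeing the data, gave 17 to 188 for Fos, 7 to 11 for Arc, 0 to 147 for Ntrk2, 578 to 3423 for Ntrk3, 2 to 11 for Ngfr and 0 to 144 for Sort1. For Fos the lowest of these, 17, came without library 52, with 18 without library 3 and 20 without library 31, and the highest without library 51. The cause was not tested. Depth limits the genes with few reads, Ngfr (1 to 60 per library) and Ntf4.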

Other observations

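In the fit on Bdnf no cell type marker passed the adjusted test of edgeR, and the slopes of 5 marker lists were all of 1 sign. Of the 10 oligodendrocyte markers, 0 had a positive slope, with a median of -0.10 log2 units per SD of Bdnf. Of the 10 endothelial and mural markers and of the 8 meningeal markers tested, 0 had a positive slope, with medians of -0.07 and -0.32. All 8 pan-neuronal and all 5 upper-layer markers tested had a positive slope, with medians of 0.04 and 0.05. Other lists were mixed, with positive slopes for 2 of 11 astrocyte, 1 of 9 microglia, 1 of 6 oligodendrocyte precursor, 2 of 7 striatal, 2 of 7 deep-layer, 6 of 7 excitatory neuron, 6 of 7 interneuron and 1 of 2 cholinergic markers. Over all genes 48.7% of slopes were positive. The part of tissue composition in these slopes was not tested.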
